A study of Mus musculus with 13 samples.

Results

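Accessible chromatin was compared between haematopoietic stem cells (HSCs) of different output at the loci of 8 myeloid genes: the transcription factor genes Spi1, Cebpa, Gfi1 and Irf8, the granule protein genes Mpo and Elane, and the growth factor receptor genes Csf1r and Csf3r. A region of the deposited table was assigned to a locus when its midpoint lay in a window of 30 to 120 kb around the gene, and 86 of the 115295 regions met that rule. The windows were chr2:90915000-90960000 for Spi1, chr7:35850000-35960000 for Cebpa, chr5:108100000-108200000 for Gfi1, chr8:123230000-123350000 for Irf8, chr11:87590000-87640000 for Mpo, chr10:79335000-79365000 for Elane, chr18:61250000-61305000 for Csf1r and chr4:125680000-125730000 for Csf3r, all in the mm9 build of the table. Region starts are printed as the table has them, and the sources used here do not state if they count from 0 or 1. No annotation of mm9 was used, so a region is placed in a window and not in an exon, an intron or a promoter. By gene order in RefSeq, Spi1 lies between Slc39a13 and Mybpc3, Cebpa between Gm45095 and Slc7a10, Gfi1 between Rpap2 and Evi5, and Irf8 between Cox4i1 and Foxf1. Mpo lies between Tspoap1 and Lpo, Elane between Prtn3 and Cfd, Csf1r between Pdgfrb and Hmgxb3, and Csf3r between Grik3 and Mrps15. A region of a window may belong to a neighbour.

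Each replicate was 500 sorted cells, profiled in bulk by Omni-ATAC-seq, an assay that uses a transposase to cut open chromatin. All groups came from bone marrow of C57BL/6 mice that had received a single Vwf+ HSC and whose blood was followed over 16 weeks. All were donor-derived cells of the phenotype LSK Flt3- CD150+ CD48- CD45.2+ Gata1-. PLT-HSC came from P-restricted recipients (3 libraries), PEM-HSC from PEM-restricted recipients (6 libraries) and MUL-HSC from multilineage recipients (4 libraries). The cells of a recipient thus descend from 1 transplanted cell. Nothing in the labels ties a replicate to a recipient of its own, and the p-values therefore cover only library-to-library spread, which may be technical. The stem cell label was not set against marker genes, since no gene was placed on mm9.

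Library totals were 2378024 to 3307889 counts in PLT-HSC, 1276962 to 3851165 in PEM-HSC and 1307222 to 2831520 in MUL-HSC. In the summed Csf1r counts MUL-HSC replicate 3 lay far from its group. The called regions and the sums of Csf1r and Cebpa are therefore given with and without it. It was picked from the Csf1r values themselves, and in each of these measures it was the MUL-HSC library nearest the restricted groups. Leaving it out therefore widens the difference, and values without it are no added support for one. The regions of the 8 loci took 0.0727% to 0.0776% of all counts in PLT-HSC libraries, 0.0717% to 0.0791% in PEM-HSC libraries and 0.0796% to 0.0897% in MUL-HSC libraries. Every PLT-HSC and PEM-HSC library had a lower share than every MUL-HSC library, which is given as a description, with no test.

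Myeloid cells arise from HSCs through progenitors in which a small set of transcription factors acts in combination. Spi1 encodes PU.1, an ETS-family factor required for monocytes and granulocytes, and Cebpa encodes C/EBP alpha, which drives granulocyte-monocyte commitment. Irf8 directs monocyte and dendritic cell fate, and Gfi1 encodes a zinc-finger repressor needed for neutrophils. Their targets include the genes of the primary granule proteins myeloperoxidase (Mpo) and neutrophil elastase (Elane), and of the receptors for macrophage colony-stimulating factor (Csf1r) and granulocyte colony-stimulating factor (Csf3r), through which myeloid cells are expanded.

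RefSeq promoters were found for 6 of the 8 genes, Cebpa, Gfi1, Irf8, Mpo, Elane and Csf3r, in the GRCm38.p6 build. The 250 bases before the start are shown for a regulator, both granule protein genes and a receptor, since they differ in CpG content and in GAGGAA, an ETS-type motif that PU.1 can bind. Capitals mark GAGGAA on either strand. This build differs from that of the table, so no count is placed on these bases.
Cebpa: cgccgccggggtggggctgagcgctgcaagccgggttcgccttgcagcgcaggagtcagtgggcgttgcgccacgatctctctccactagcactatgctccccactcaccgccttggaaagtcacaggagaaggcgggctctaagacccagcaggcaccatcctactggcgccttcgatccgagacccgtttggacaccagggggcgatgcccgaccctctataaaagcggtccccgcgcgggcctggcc
Mpo: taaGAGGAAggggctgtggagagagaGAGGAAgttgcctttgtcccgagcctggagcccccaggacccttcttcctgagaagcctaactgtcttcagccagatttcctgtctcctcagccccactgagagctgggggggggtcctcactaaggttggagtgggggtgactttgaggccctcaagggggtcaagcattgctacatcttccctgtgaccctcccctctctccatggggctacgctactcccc
Elane: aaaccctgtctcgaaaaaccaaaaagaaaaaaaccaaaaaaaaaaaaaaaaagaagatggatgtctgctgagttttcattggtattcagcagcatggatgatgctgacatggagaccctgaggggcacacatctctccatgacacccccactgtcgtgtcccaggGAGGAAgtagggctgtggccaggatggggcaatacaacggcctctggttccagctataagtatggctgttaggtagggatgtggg
Csf3r: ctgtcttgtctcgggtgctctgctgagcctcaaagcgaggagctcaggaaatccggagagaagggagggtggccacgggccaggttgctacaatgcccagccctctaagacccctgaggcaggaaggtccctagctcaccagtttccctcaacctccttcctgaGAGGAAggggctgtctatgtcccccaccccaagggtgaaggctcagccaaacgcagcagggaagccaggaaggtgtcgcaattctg
They lie on the plus strand at chr7:35119043-35119292, chr11:87793534-87793783, chr10:79886062-79886311 and chr4:126024409-126024658 of GRCm38.p6. The Cebpa promoter held 22 CpG and no GAGGAA. That of Mpo held 2 CpG and 2 GAGGAA, that of Elane 3 CpG and 1 GAGGAA, and that of Csf3r 6 CpG and 1 GAGGAA. The first promoters of Irf8, with 29 CpG, and of Gfi1, with 13 CpG, held no GAGGAA. On either strand, GAGGAA was present in 23.3% of 32851 RefSeq mouse promoters of this length, and the median promoter had 6 CpG. TTGCNNAA, a pattern that C/EBP factors can bind, was searched on both strands as well and was found in the first promoter of Gfi1 alone among these genes' promoters, and in 9.56% of all promoters. A match describes the letters and is not a site of binding.

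The windows of the transcription factors held most of the regions. Cebpa and Irf8 had 17 each, Gfi1 14, Elane 9, Spi1, Mpo and Csf1r 8 each, and Csf3r 5. Levels are in CPM, and levels of different regions are compared per kb of region. For single regions, CPM are of the counts in regions that passed a count filter, 91.4% of all, scaled for composition. For locus sums, they are of the counts in all regions, scaled likewise. CPM of a region and of a sum are therefore not on 1 scale, and a region's share of its locus is given from counts. Averaged over 13 libraries, summed accessibility was 23.1 ± 2.58 CPM per kb at Spi1, 19.3 ± 1.64 at Elane, 18.6 ± 1.44 at Gfi1, 17.7 ± 2.01 at Cebpa, 17.4 ± 2.69 at Csf3r, 12.2 ± 2.38 at Csf1r, 11.7 ± 1.29 at Irf8 and 6.32 ± 1.67 at Mpo (SD, n = 13). The order from Elane to Csf3r lay within the spread of the libraries, as did that of Csf1r and Irf8. Spi1 stood above Elane, Csf3r above Csf1r, and Mpo below Irf8, each by more than 1 SD.

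Single regions carried much of the signal. The strongest per kb of all 86 was the third of the Spi1 window, chr2:90922993-90923540, with 72.2 CPM per kb. Next came the twelfth of Gfi1, chr5:108187983-108189050, with 61.1 CPM per kb, and the third of Elane, chr10:79340414-79341092, with 41.9 CPM per kb. At Csf3r the fifth region, chr4:125723901-125724755, held 74.2% of the counts of its locus, and at Csf1r the fourth, chr18:61267104-61268790, held 65.1%. Irf8 was spread more evenly, its strongest region, chr8:123238993-123239721, holding 14.9%. The highest region of the Mpo window, chr11:87591774-87592418, reached 11.8 CPM per kb.

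**Figure D1:**
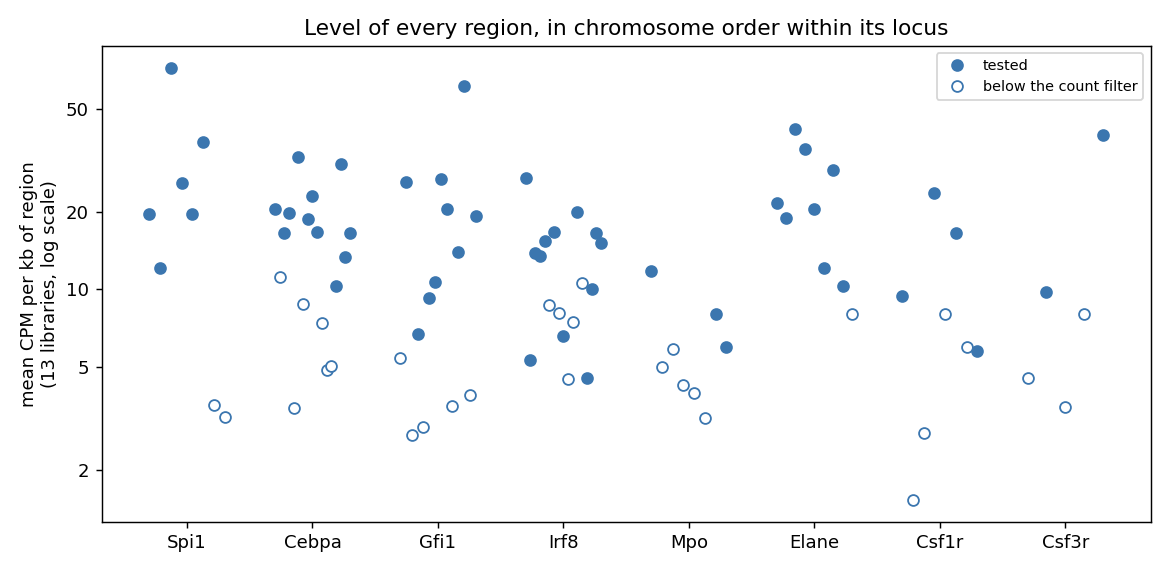
Mean accessibility of each of the 86 regions in CPM per kb of region over 13 libraries (log axis), by locus and in chromosome order within it, with filled points for tested regions and open points for regions below the count filter. The highest points are in the Spi1 and Gfi1 windows, at 72.2 and 61.1 CPM per kb, and all 8 points of the Mpo window lie at or under 11.8 CPM per kb.

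A filter on low counts, applied to the whole table by group, left 55 of the 86 regions for testing: 12 of Irf8, 11 of Cebpa, 9 of Gfi1, 8 of Elane, 6 of Spi1, 4 of Csf1r, 3 of Mpo and 2 of Csf3r. The other 31 had at most 102 counts each over all libraries, and they held 26.8% of the counts at Mpo and 1.40% to 9.02% at the other loci. Summed, these 31 regions came to 36.6 ± 5.80 CPM in PLT-HSC, 36.4 ± 9.54 CPM in PEM-HSC and 57.9 ± 12.6 CPM in MUL-HSC (SD, n = 3, 6 and 4). Here CPM are of the library total over all regions, with no scaling for composition. The same sum over the other regions below the filter was not taken, so these values cannot be called particular to the myeloid loci. The libraries ranged over 33.0 to 43.3 CPM in PLT-HSC, 25.8 to 47.0 CPM in PEM-HSC and 39.8 to 68.5 CPM in MUL-HSC, so the groups overlapped.

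The comparison of each restricted group with MUL-HSC asked whether accessibility at the myeloid loci differs between HSCs with restricted and with multilineage output. Most regions did not pass the test. In PLT-HSC against MUL-HSC, 1 region rose, at Cebpa, and 1 fell, at Csf1r, together 3.64% of 55, where 2.41% of all 59408 tested regions were called (edgeR quasi-likelihood test, adjusted p under 0.05), 1.13% higher and 1.28% lower. In PEM-HSC against MUL-HSC, the same Csf1r region fell and none rose, 1.82% of 55 against 0.832% of all, 0.242% higher and 0.589% lower. Both comparisons use the same 4 MUL-HSC libraries. In PLT-HSC against PEM-HSC 0 of 55 were called by edgeR, and DESeq2, with its own filter on the whole table, called 0 member regions, where edgeR called 0.00168% of all regions, which is 1 region. At an unadjusted p under 0.05 stood 2 of 55 in that comparison, where 4.61% of all regions did: the sixteenth region of Irf8, with a log2 fold change of -0.50, and the sixth of Csf1r, with 0.72. A joint test for a difference between any groups called 1 of 55, the Csf1r region, against 1.67% of all. With 1 or 2 regions called of 55, the shares are near the background of the table.

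The region that fell in both was the eighth and last of the Csf1r window, chr18:61290935-61291900. It had 1.63, 1.40 and 4.29 CPM in the PLT-HSC libraries, 2.58 at the lowest, 3.14 at the median and 5.49 at the highest in the 6 PEM-HSC libraries, and 14.1, 16.5, 4.51 and 8.01 in the MUL-HSC libraries. All PLT-HSC libraries lay below all MUL-HSC libraries, and PEM-HSC overlapped MUL-HSC through MUL-HSC replicate 3, the library at 4.51. The log2 fold change over MUL-HSC was -2.00 ± 0.44 for PLT-HSC and -1.46 ± 0.36 for PEM-HSC (SE; adjusted p = 0.0133 and 0.0440, edgeR). Without MUL-HSC replicate 3 these values were -2.27 and -1.73 (adjusted p = 0.00286 and 0.00805, edgeR). For PLT-HSC over PEM-HSC the log2 fold change was -0.54, with a 95% interval of -1.47 to 0.38. It was -1.24 with PLT-HSC replicate 3 left out and -0.29 with PLT-HSC replicate 1 left out, and was not called in either case by edgeR. The values rest on 21 counts over the PLT-HSC libraries, 51 over the PEM-HSC libraries and 72 over the MUL-HSC libraries. The region passed the count filter only through MUL-HSC, the group where it is high, so its being tested is not independent of its fall. With a mean of at least 20 counts required, it was not tested. In bulk libraries, fewer cells with the region open and less opening per cell cannot be told apart.

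Both calls at this region depended on single libraries, and both were lost with the library total as a covariate, at log2 fold changes of -1.75 for PLT-HSC and -1.30 for PEM-HSC (adjusted p = 0.0706 and 0.0976, edgeR). With 1 surrogate variable they were lost too, at -1.73 and -1.30 (adjusted p = 0.0727 and 0.0912, edgeR). The PLT-HSC call was lost without replicate 1 or 2 of MUL-HSC, or replicate 1 or 2 of PLT-HSC (log2 fold change -1.84 to -1.75, adjusted p = 0.0578 to 0.105, edgeR). The PEM-HSC call was lost without replicate 1, 2 or 4 of MUL-HSC, or replicate 1, 2, 4, 5 or 6 of PEM-HSC (log2 fold change -1.62 to -1.22, adjusted p = 0.0593 to 0.193, edgeR). It was also lost by DESeq2, at -1.49 (adjusted p = 0.0623, DESeq2), and without robust estimation (adjusted p = 0.0642, edgeR), and was past the threshold in 9 of 23 alternatives. Without the 5 libraries under 2000000 counts, which include MUL-HSC replicates 1 and 2, the log2 fold changes were -1.34 for PLT-HSC and -0.74 for PEM-HSC over MUL-HSC, and neither was called (adjusted p = 0.318 and 0.734, edgeR).

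The sum over the Csf1r window includes that region and was not called. The 8 regions together had 51.4, 53.2 and 62.6 CPM in PLT-HSC libraries, 41.1 to 57.2 with a median of 50.4 in PEM-HSC libraries, and 70.7, 74.0, 52.5 and 73.8 in MUL-HSC libraries. MUL-HSC replicate 3 lay among the libraries of the restricted groups, and the other 3 MUL-HSC libraries lay above all of them. The log2 fold change of the sum over MUL-HSC was -0.27 for PLT-HSC (95% interval -0.54 to -0.00127) and -0.44 for PEM-HSC (-0.68 to -0.20), and neither passed in an edgeR fit of 50 kb tiles with the locus sums as added rows (adjusted p = 0.287 and 0.0654). The PEM-HSC sum was past the threshold without MUL-HSC replicate 3, at -0.55 (adjusted p = 0.0127, edgeR), and without PEM-HSC replicate 4, at -0.50 (adjusted p = 0.0427, edgeR). These were the only 2 of 18 alternatives in which it passed. It was -0.42, -0.40 and -0.38 without MUL-HSC replicate 1, 2 and 4 in turn (adjusted p = 0.198, 0.189 and 0.257, edgeR). The PLT-HSC sum without MUL-HSC replicate 3 was at -0.38 and was not called (adjusted p = 0.0894, edgeR). The fourth region, the strongest of Csf1r, averaged 39.4 ± 1.88 CPM in PLT-HSC, 37.2 ± 5.27 CPM in PEM-HSC and 43.8 ± 3.49 CPM in MUL-HSC (SD, n = 3, 6 and 4), and was not called. The first region of the window, chr18:61250199-61250723, averaged 5.79 ± 3.90 CPM in PLT-HSC, 2.98 ± 1.92 CPM in PEM-HSC and 7.21 ± 3.10 CPM in MUL-HSC (SD, n = 3, 6 and 4), and was not called either.

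At Cebpa, single regions had log2 fold changes of opposite sign. The first region of the window, chr7:35865611-35866586, was the one called higher in PLT-HSC. It had 28.0, 32.2 and 19.1 CPM in the PLT-HSC libraries, 17.0 at the lowest, 20.5 at the median and 29.5 at the highest in PEM-HSC, and 12.8, 6.61, 17.6 and 14.5 in the MUL-HSC libraries. All PLT-HSC libraries exceeded all MUL-HSC libraries, and PEM-HSC overlapped both. The log2 fold change over MUL-HSC was 0.96 ± 0.24 for PLT-HSC and 0.68 ± 0.22 for PEM-HSC (SE; adjusted p = 0.0301 and 0.134, edgeR), the second not past the threshold. Without MUL-HSC replicate 3 these values were 1.13 and 0.85 (adjusted p = 0.0160 and 0.0655, edgeR), the second again not past it. The PLT-HSC call was lost without replicate 1, 2 or 4 of MUL-HSC, or replicate 1 or 2 of PLT-HSC (log2 fold change 0.79 to 1.01, adjusted p = 0.0785 to 0.142, edgeR), and without the 5 libraries under 2000000 counts (log2 fold change 0.70, adjusted p = 0.307, edgeR). It was also lost with the library total as a covariate, at 0.88 (adjusted p = 0.0854, edgeR), and with 1 surrogate variable, at 0.88 (adjusted p = 0.0866, edgeR).

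The fourth region of the Cebpa window, chr7:35883724-35884245, had 7.48, 7.94 and 9.56 CPM in the PLT-HSC libraries, 4.30 at the lowest, 8.82 at the median and 11.9 at the highest in PEM-HSC, and 15.4, 13.2, 14.5 and 16.0 in the MUL-HSC libraries. Every PLT-HSC and PEM-HSC library lay below every MUL-HSC library. Its log2 fold change over MUL-HSC was -0.83 ± 0.30 for PLT-HSC and -0.92 ± 0.26 for PEM-HSC, and it was not called (SE; adjusted p = 0.140 and 0.0813, edgeR). Separation of this kind, with all libraries lower, was seen in 4 of the 55 regions for PLT-HSC, against 6.56% of all tested regions, and in 1 for PEM-HSC, against 2.08%. The 4 were this region, the fourth of Gfi1, the eighth of Csf1r and the second of Csf3r. The Gfi1 and Csf1r regions were too low in PLT-HSC to pass the count filter through that group. Their being tested is thus not independent of their separation. In the higher direction 1 of 55 was separated for PLT-HSC, the first of Cebpa, against 6.67% of all, and 0 for PEM-HSC, against 1.51%.

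The Cebpa region of highest CPM, the sixth, chr7:35903032-35904799, averaged 55.4 ± 3.99 CPM in PLT-HSC, 55.2 ± 6.80 CPM in PEM-HSC and 61.6 ± 8.77 CPM in MUL-HSC (SD, n = 3, 6 and 4). The summed Cebpa regions had 175, 165 and 166 CPM in PLT-HSC libraries, 155 to 174 with a median of 163 in PEM-HSC libraries, and 191, 225, 163 and 198 in MUL-HSC libraries, where MUL-HSC replicate 3, the lowest of its group, lay within the PEM-HSC range. For the sum, the log2 fold change over MUL-HSC was -0.20 for PLT-HSC (95% interval -0.37 to -0.02) and -0.24 for PEM-HSC (-0.40 to -0.09), and neither was past the threshold (adjusted p = 0.237 and 0.116, edgeR). Without MUL-HSC replicate 3 the PEM-HSC value was -0.32 and passed (adjusted p = 0.0256, edgeR), and the PLT-HSC value was -0.27 and did not (adjusted p = 0.0659, edgeR). That was the only 1 of 18 alternatives in which the PEM-HSC sum passed. Without MUL-HSC replicate 2, the highest of its group, the values were -0.17 for PEM-HSC and -0.13 for PLT-HSC (adjusted p = 0.351 and 0.534, edgeR).

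Csf3r had 2 tested regions with unlike values. The second of the window, chr4:125701323-125702175, had 6.18, 5.14 and 6.60 CPM in PLT-HSC libraries, 6.01 at the lowest, 7.31 at the median and 11.3 at the highest in PEM-HSC, and 14.1, 11.6, 11 and 8.01 in MUL-HSC libraries. PLT-HSC lay below MUL-HSC without overlap, and PEM-HSC overlapped both. Its log2 fold change over MUL-HSC was -0.85 ± 0.30 for PLT-HSC and -0.52 ± 0.25 for PEM-HSC (SE; adjusted p = 0.124 and 0.349, edgeR), not past the threshold. The fifth region, the strongest of Csf3r, averaged 32.3 ± 3.32 CPM in PLT-HSC, 34.8 ± 7.83 CPM in PEM-HSC and 33.5 ± 3.10 CPM in MUL-HSC (SD, n = 3, 6 and 4), with log2 fold changes over MUL-HSC of -0.06 (95% interval -0.41 to 0.29) for PLT-HSC and 0.05 (-0.26 to 0.35) for PEM-HSC. The Csf3r sum was 38.0 ± 4.96 CPM in PLT-HSC, 42.2 ± 8.29 CPM in PEM-HSC and 45.7 ± 2.52 CPM in MUL-HSC (SD, n = 3, 6 and 4), and PLT-HSC lay below MUL-HSC without overlap (log2 fold change -0.25, adjusted p = 0.422, edgeR). How often tiles of the genome separate in this way was not counted, so the separation of a sum is only a description.

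**Figure D2:**
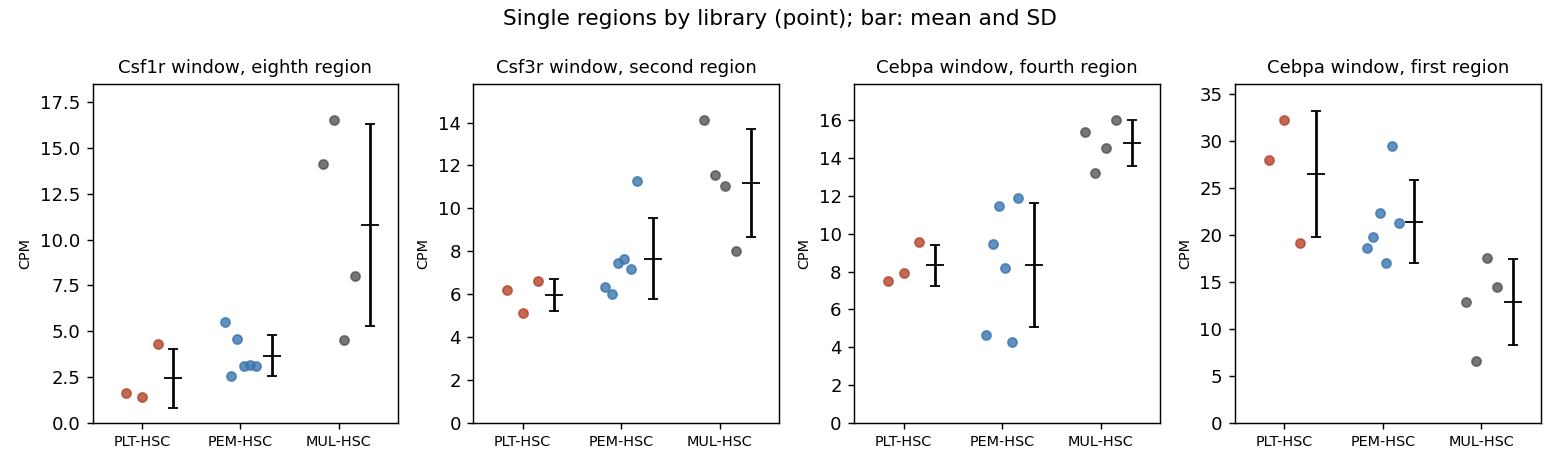
Accessibility in CPM of 4 single regions in each library (points), with the mean and SD of each group (bars), for PLT-HSC (n = 3), PEM-HSC (n = 6) and MUL-HSC (n = 4). In the eighth region of Csf1r, the second of Csf3r and the fourth of Cebpa the PLT-HSC points lie below all MUL-HSC points, and in the first of Cebpa they lie above them. MUL-HSC replicate 3, at 4.51 CPM in the Csf1r region, lies within the PEM-HSC range.

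At Spi1 no region was called. The third region, its strongest, averaged 35.7 ± 2.34 CPM in PLT-HSC, 40.3 ± 2.04 CPM in PEM-HSC and 41.1 ± 3.72 CPM in MUL-HSC (SD, n = 3, 6 and 4). Its log2 fold change over MUL-HSC was -0.19 (95% interval -0.46 to 0.07) for PLT-HSC and -0.02 (-0.25 to 0.21) for PEM-HSC. All PLT-HSC libraries lay below all PEM-HSC libraries here, the only tested region of the 55 with such a separation, against 0.968% of all regions. None of the 55 had all PLT-HSC libraries above all PEM-HSC libraries, against 1.32% of all. The summed Spi1 regions came to 105 ± 8.91 CPM in PLT-HSC, 108 ± 12.7 CPM in PEM-HSC and 112 ± 15.1 CPM in MUL-HSC (SD, n = 3, 6 and 4), with log2 fold changes over MUL-HSC of -0.09 (95% interval -0.31 to 0.13) for PLT-HSC and -0.05 (-0.25 to 0.14) for PEM-HSC.

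Irf8 had 12 tested regions, of which 7 had a log2 fold change below 0 for PLT-HSC and 6 for PEM-HSC over MUL-HSC, and none was called. Its sum was 115 ± 12.6 CPM in PLT-HSC, 118 ± 14.1 CPM in PEM-HSC and 121 ± 14.7 CPM in MUL-HSC (SD, n = 3, 6 and 4), with 95% intervals of the log2 fold change over MUL-HSC of -0.28 to 0.17 for PLT-HSC and -0.22 to 0.17 for PEM-HSC. Its strongest region, the first, averaged 17.4 ± 3.46 CPM in PLT-HSC, 18.8 ± 6.02 CPM in PEM-HSC and 22.5 ± 3.97 CPM in MUL-HSC (SD, n = 3, 6 and 4). The third region, chr8:123259615-123260922, went the other way, with 20.8 ± 5.77 CPM in PLT-HSC, 18.5 ± 2.17 CPM in PEM-HSC and 15.6 ± 2.96 CPM in MUL-HSC (SD, n = 3, 6 and 4), and a log2 fold change of 0.46 for PLT-HSC over MUL-HSC (adjusted p = 0.297, edgeR). The fourth, chr8:123267460-123268198, averaged 8.51 ± 2.37 CPM in PLT-HSC, 11.5 ± 1.89 CPM in PEM-HSC and 8.58 ± 1.55 CPM in MUL-HSC (SD, n = 3, 6 and 4), with a log2 fold change of 0.43 for PEM-HSC over MUL-HSC (adjusted p = 0.445, edgeR).

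Summed Gfi1 regions had 175, 167 and 154 CPM in PLT-HSC libraries, 155 to 188 with a median of 169 in PEM-HSC libraries, and 183, 180, 198 and 194 in MUL-HSC libraries. PLT-HSC lay below MUL-HSC without overlap, and PEM-HSC overlapped both. This separation, too, is a description with no share of tiles beside it. Over MUL-HSC, the log2 fold change of the sum was -0.20 for PLT-HSC (95% interval -0.36 to -0.04) and -0.15 for PEM-HSC (-0.29 to -0.01), neither past the threshold (adjusted p = 0.175 and 0.284, edgeR). The twelfth region, its strongest, averaged 59.4 ± 13 CPM in PLT-HSC, 62.0 ± 6.42 CPM in PEM-HSC and 74.3 ± 6.21 CPM in MUL-HSC (SD, n = 3, 6 and 4). The fourth region, a weak one at chr5:108127741-108128450, averaged 3.32 ± 0.389 CPM in PLT-HSC, 4.06 ± 1.97 CPM in PEM-HSC and 6.93 ± 2.25 CPM in MUL-HSC (SD, n = 3, 6 and 4), and was not called (adjusted p = 0.174 for PLT-HSC, edgeR). Values of the sixth region, chr5:108137040-108137543, and of the last, chr5:108197151-108197740, ran the other way. The sixth averaged 6.51 ± 1.73 CPM in PLT-HSC, 4.41 ± 2.14 CPM in PEM-HSC and 3.67 ± 1.95 CPM in MUL-HSC (SD, n = 3, 6 and 4), and the last 11.1 ± 1.88 CPM in PLT-HSC, 12.4 ± 1.44 CPM in PEM-HSC and 9.69 ± 1.23 CPM in MUL-HSC (SD, n = 3, 6 and 4), and neither was called.

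Of the granule protein genes, Elane had the higher level per kb. The Elane sum was 86.7 ± 4.63 CPM in PLT-HSC, 86.5 ± 6.39 CPM in PEM-HSC and 96.4 ± 7.69 CPM in MUL-HSC (SD, n = 3, 6 and 4), with log2 fold changes over MUL-HSC of -0.16 (95% interval -0.35 to 0.03) for PLT-HSC and -0.15 (-0.32 to 0.01) for PEM-HSC. The third region, the strongest of Elane, averaged 26.4 ± 2.74 CPM in PLT-HSC, 28.0 ± 4.56 CPM in PEM-HSC and 30.4 ± 5.31 CPM in MUL-HSC (SD, n = 3, 6 and 4). The fourth, chr10:79344780-79345049, averaged 9.70 ± 0.986 CPM in PLT-HSC, 8.23 ± 1.66 CPM in PEM-HSC and 11.1 ± 1.72 CPM in MUL-HSC (SD, n = 3, 6 and 4), and neither was called.

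Mpo had the lowest level of the 8 loci. Its summed regions had 18.3, 18.3 and 26.6 CPM in PLT-HSC libraries, 12.1 to 22.1 with a median of 17.3 in PEM-HSC libraries, and 26.7, 20.04, 24.0 and 30.1 in MUL-HSC libraries, so the groups overlapped. The log2 fold change of the sum over MUL-HSC was -0.27 for PLT-HSC (95% interval -0.70 to 0.16) and -0.57 for PEM-HSC (-0.95 to -0.19), neither past the threshold (adjusted p = 0.549 and 0.131, edgeR). The PLT-HSC value moved with single libraries, to -0.48 without PLT-HSC replicate 3, -0.17 when PLT-HSC replicate 1 was left out and -0.16 when MUL-HSC replicate 4 was. Entering the library total as a covariate gave -0.45. None of these was past the threshold (adjusted p = 0.289 to 0.822, edgeR). The PEM-HSC value is the lowest of the 8 loci and rests on the fewest counts, 669 over 8 regions and 13 libraries. The first Mpo region averaged 7.21 ± 1.79 CPM in PLT-HSC, 7.33 ± 2.12 CPM in PEM-HSC and 8.30 ± 3.89 CPM in MUL-HSC (SD, n = 3, 6 and 4). The seventh, chr11:87624972-87625505, averaged 4.70 ± 2.79 CPM in PLT-HSC, 3.03 ± 1.5 CPM in PEM-HSC and 5.84 ± 2.2 CPM in MUL-HSC (SD, n = 3, 6 and 4), and neither was called.

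**Figure D3:**
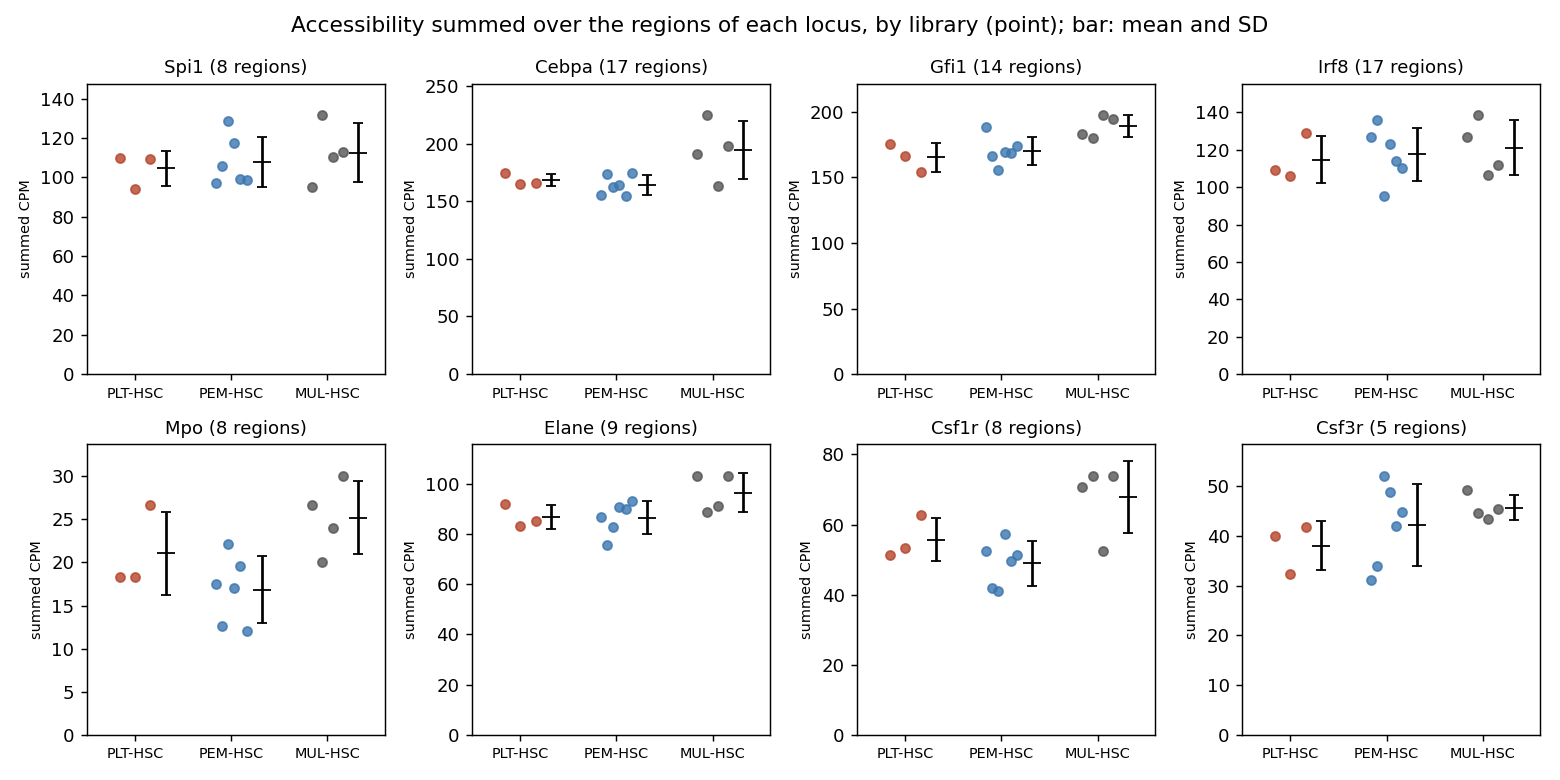
Summed CPM over all regions of each locus in each library (points), with the mean and SD of each group (bars), for PLT-HSC (n = 3), PEM-HSC (n = 6) and MUL-HSC (n = 4), on axes that start at 0. PLT-HSC points lie below all MUL-HSC points at Gfi1 and Csf3r, and MUL-HSC replicate 3 lies below the rest of its group at Csf1r, at 52.5 CPM. The share of genome tiles that separate in this way was not counted.

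None of the 8 locus sums was called in any comparison of this edgeR fit, where 2.96% of 25121 tiles and sums were called for PLT-HSC over MUL-HSC, 0.888% for PEM-HSC over MUL-HSC and 0% for PLT-HSC over PEM-HSC. By direction, 1.38% were higher and 1.58% lower in PLT-HSC, and 0.239% higher and 0.649% lower in PEM-HSC, against MUL-HSC. At an unadjusted p under 0.05 stood 3 of 8 sums for PLT-HSC over MUL-HSC (Cebpa, Gfi1 and Csf1r), where 17.3% of the tiles and sums did. For PEM-HSC over MUL-HSC 4 of 8 did (those and Mpo), where 14.7% of all did, and for PLT-HSC over PEM-HSC 0 of 8, where 4.78% did. The windows are 30 to 120 kb wide around chosen genes, the tiles are 50 kb, and the 2 were not matched for counts. These shares are therefore not like for like and are only descriptions. The 8 log2 fold changes lay between -0.27 and -0.06 for PLT-HSC and between -0.57 and -0.03 for PEM-HSC over MUL-HSC.

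Across the 55 tested regions, log2 fold changes of PLT-HSC over MUL-HSC ran from -2.00 to 0.96, with a median of -0.16 where that of all tested regions was 0.01. Of them 41 were below 0, 74.5% against 48.6% of all regions. For PEM-HSC over MUL-HSC they ran from -1.46 to 0.68, with a median of -0.20 against 0.01, and 40 were below 0, 72.7% against 48.1% of all. For PLT-HSC over PEM-HSC the median was 0.06, and 24 were below 0, 43.6% against 50.01% of all. The median size of the log2 fold change, without its sign, was 0.28 against 0.26 of all regions for PLT-HSC over MUL-HSC, and 0.23 against 0.22 for PEM-HSC over MUL-HSC. At an unadjusted p under 0.05 stood 8 of 55 for PLT-HSC over MUL-HSC, 14.5% against 15.4% of all regions, and 10 for PEM-HSC over MUL-HSC, 18.2% against 13.6%. Regions of a window share libraries and are not independent, so these shares are descriptions.

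**Figure D4:**
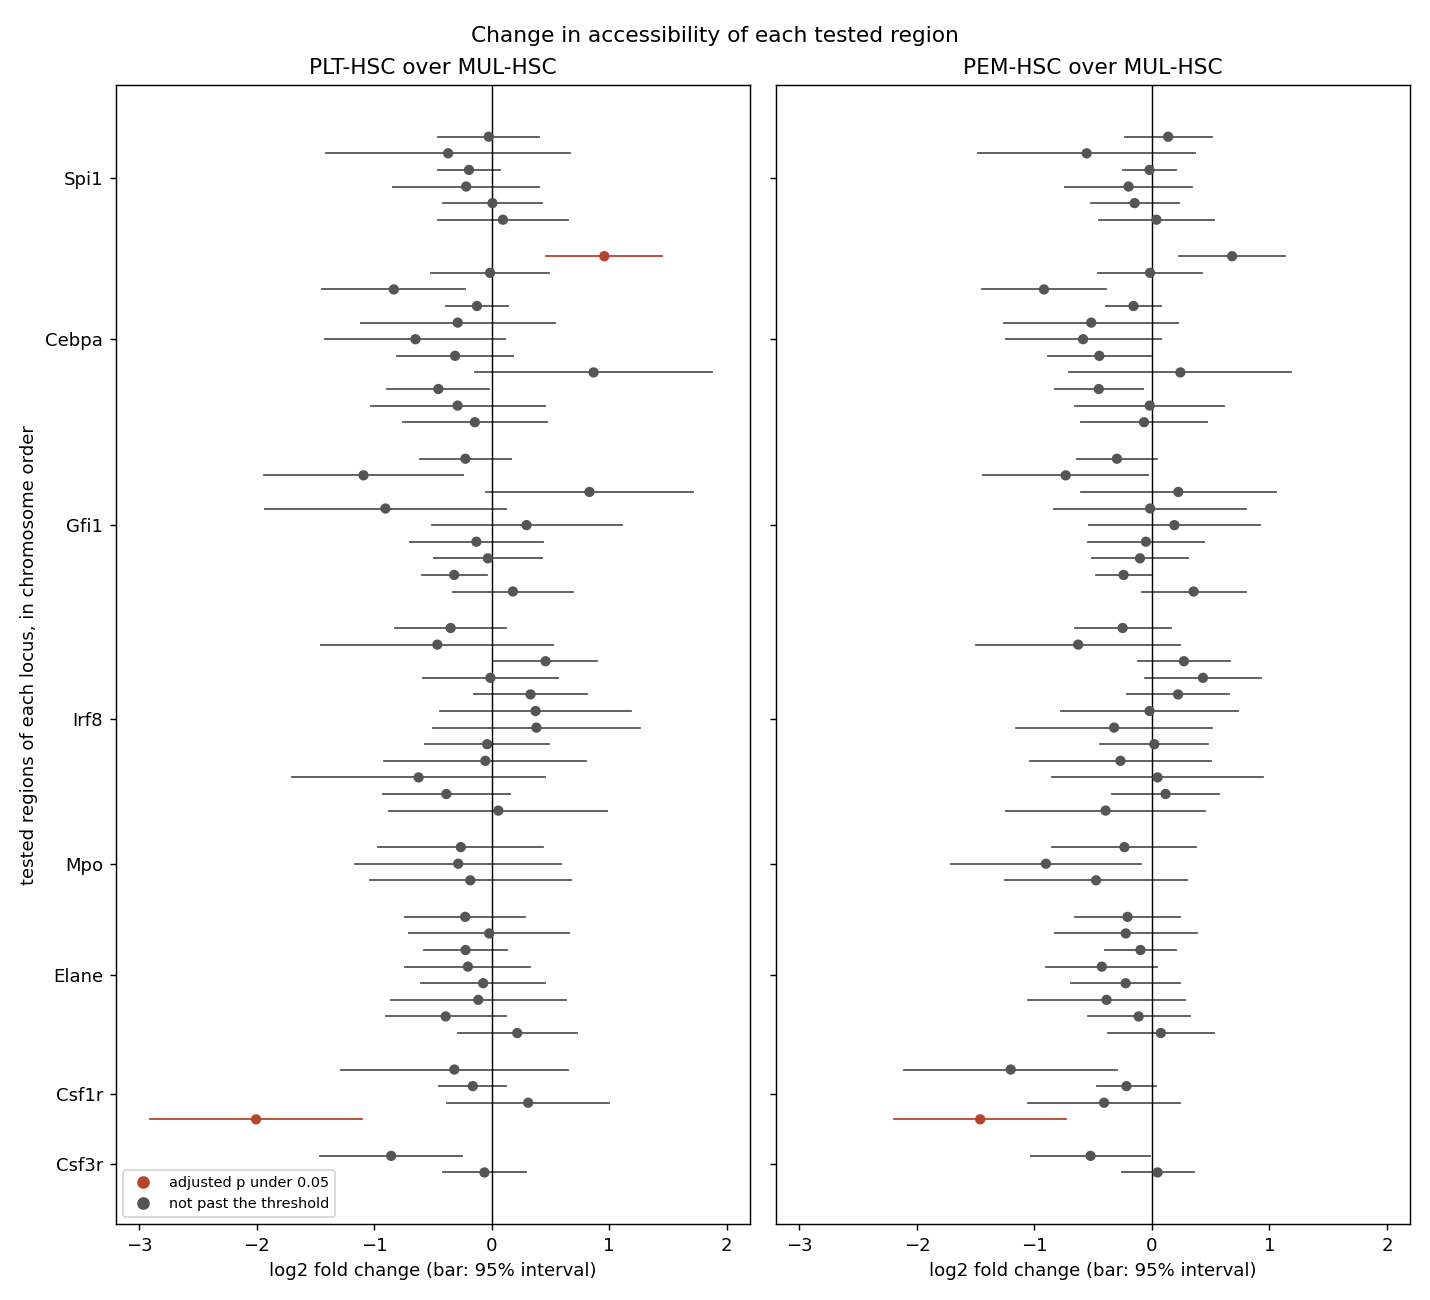
Log2 fold change of each of the 55 tested regions, in chromosome order within each locus, for PLT-HSC over MUL-HSC (left) and PEM-HSC over MUL-HSC (right), with 95% intervals as bars and regions past an adjusted p of 0.05 in red. Most points lie left of 0 and most intervals cross it. The called regions are the last of Csf1r in both panels and the first of Cebpa in the left one.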

How the data were processed

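The authors deposited 1 table of raw counts per accessible region for 13 libraries, whose column names match the sample titles. The tools listed in the submitters' processing notes are MACS2, Bowtie2, Trim Galore, Picard, FastQC and SAMtools, with the build mm9. The sources used here give no versions, counting tool, handling of duplicates, pooling for region calling or shift of read ends. How regions were called decides which weak regions are in the table.

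Counts were analysed in R 4.3.3 with edgeR 4.0.16: filterByExpr by group (59408 regions, 91.4% of counts), TMM scaling, 1 robust quasi-likelihood fit of all 13 libraries, two-sided tests, Benjamini-Hochberg adjustment over all tested regions and a threshold of 0.05. Standard errors are the size of the log2 fold change over the root of F, and intervals are at the 95% level. Locus sums were added as rows to 50 kb tiles of the genome and fitted the same way. The fits were tested on simulated data, where the fit of regions missed most of the smaller changes. A region that was not called may therefore still differ. Alternatives used DESeq2 1.42.0, sva 3.50.0 and other settings, given in the closing section. None of the 24 within-group pairs agreed within sampling noise, so none was counted as 1 library, which does not show that they came from separate recipients (chi-square per degree of freedom 1.44 to 2.45).

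Regions named are those called, the highest in CPM and the smallest in joint p of each locus, and the 3 of smallest p in each direction against MUL-HSC. Members and lists were chosen with earlier results of these data known. Lists of further myeloid genes and of cell type markers were not used, because no mm9 annotation was at hand. Promoters are from RefSeq, GRCm38.p6.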

Additional observations from a re-analysis of the deposited data

Results flagged for a closer look

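In 5 of 58 groups of values a library lay far from the rest of its group, where chance gives about 1 in 20. The summed Csf1r regions had 52.5 CPM in MUL-HSC replicate 3, and 70.7 to 74.0 CPM in the other MUL-HSC libraries. The last Gfi1 region had 15.2 CPM in PEM-HSC replicate 1, and 11.2 to 12.5 CPM in the other PEM-HSC libraries. The same region had 11.5 CPM in MUL-HSC replicate 3, and 8.98 to 9.15 CPM in the other MUL-HSC libraries. The first Mpo region had 2.48 CPM in MUL-HSC replicate 2, the MUL-HSC library with the lowest total, and 9.91 to 10.5 CPM in the others. The second Csf3r region had 11.3 CPM in PEM-HSC replicate 6, and 6.01 to 7.64 CPM in the other PEM-HSC libraries.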

How the results depend on the processing

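No called log2 fold change changed sign under any alternative run. The counts of called regions were small and varied with the setting. Between PLT-HSC and MUL-HSC, 2 regions were called as reported, and also by DESeq2, with library totals alone, in the compared groups alone, without robust estimation and with any overlap of a window. No filter gave 3, a mean of at least 20 counts 1 (Cebpa), and the total as covariate or 1 surrogate variable 0. Between PEM-HSC and MUL-HSC, 1 region was called as reported, 2 with no filter, and 0 by DESeq2, with a mean of at least 20 counts, without robust estimation, with the total as covariate or with 1 surrogate variable. The joint test called 1 as reported, 3 by DESeq2, 4 with no filter, and 0 with a mean of at least 20 counts, the total as covariate or 1 surrogate variable. Without the libraries under 2000000 counts all of these counts were 0. The surrogate variable and the limit on library totals were chosen after seeing the data. Leaving out 1 library at a time gave 0 to 2 regions (PLT-HSC, MUL-HSC), 0 to 1 (PEM-HSC, MUL-HSC), 0 (PLT-HSC, PEM-HSC) and 0 to 2 (joint test). It gave 0 to 2 locus sums between PEM-HSC and MUL-HSC, with 2 without MUL-HSC replicate 3 and 1 without PEM-HSC replicate 4, and 0 in the other comparisons. Fewer regions are tested under the stricter filter, fewer libraries remain where some are left out, DESeq2 used its own filter on the whole table, so the regions it tested differ too, and the cause of the other changes was not tested. Of the locus sums, that of Mpo had the fewest counts and the widest intervals of the log2 fold change over MUL-HSC. They ran from -0.70 to 0.16 for PLT-HSC and from -0.95 to -0.19 for PEM-HSC. Whether depth set the width of these intervals was not tested.

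Same-numbered libraries did not deviate together (correlations -0.14 to 0.0992 over 10 pairs, 0 over 0.1), so the numbers were not taken as pairs. With the replicate block, 1 region was called between PLT-HSC and MUL-HSC, 0 between PEM-HSC and MUL-HSC and 0 in the joint test. The eighth region of Csf1r then had a log2 fold change over MUL-HSC of -2.10 in PLT-HSC and -1.33 in PEM-HSC (adjusted p = 0.0449 and 0.231, edgeR), and the first of Cebpa 0.94 in PLT-HSC (adjusted p = 0.0893, edgeR).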

Other observations

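Of the 31 regions below the count filter, 2 were called when no filter was applied, and they are named here after their values were seen. The tenth region of the Irf8 window, chr8:123308266-123308465, had 0 counts over the PLT-HSC libraries, 4 over the PEM-HSC libraries and 19 over the MUL-HSC libraries (6, 3, 0 and 10). It was called lower in PLT-HSC than in MUL-HSC (adjusted p = 0.0205, edgeR without a filter). With a floor of 3 counts over the PLT-HSC group, the ratio of MUL-HSC over PLT-HSC was 7.07. This ratio takes the 19 MUL-HSC counts as exact and is not a lower bound. The region was not called in PEM-HSC against MUL-HSC (adjusted p = 0.0822, edgeR without a filter). The fifth region of the Gfi1 window, chr5:108129923-108130244, had 5 counts over the PLT-HSC libraries, 2 over the PEM-HSC libraries and 18 over the MUL-HSC libraries (4, 2, 5 and 7). It was called lower in PEM-HSC (adjusted p = 0.0242, edgeR without a filter), with a ratio of MUL-HSC over PEM-HSC of 17.0 (95% counting interval 4.07 to 151). In PLT-HSC against MUL-HSC it was not called (adjusted p = 0.234, edgeR without a filter). The interval covers counting error only, and the floor covers that of the PLT-HSC count alone. Without a filter, 1.80% of all 115295 regions were called for PLT-HSC and 0.559% for PEM-HSC over MUL-HSC. Of all 86 member regions, 3 were called for PLT-HSC and 2 for PEM-HSC in that fit. The share called among regions below the filter alone was not taken.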
